A study of Mus musculus with 8 samples.

Results

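The 7 genes described here encode proteins that keratinocytes use to loosen and cross matrix at a wound edge: the plasminogen activator Plau and its receptor Plaur, the metalloproteinases Mmp9, Mmp10 and Mmp13, the matrix glycoprotein Tnc and the hyaluronan receptor Cd44. They were chosen by name for these roles, with earlier results of these data known. All 7 were found by Ensembl identifier among the 46078 genes of the deposited count table, and 5 of them were among the 16495 genes with enough counts to test. Mmp10 and Mmp13 were too low to test and are described by their counts.

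The cells were Lgr5-traced cells sorted from the epidermis of Lg5-egfp-ires-creert2/R26-tdTomato mice after skin injury. The Cre recombinase is driven by Lgr5, a gene of hair follicle stem cells, so the traced cells are those stem cells and their progeny. Injury took place in the absence of regulatory T cells (Tregs) for 4 Treg-depleted libraries and in their presence for 4 Treg-sufficient libraries. Each of 2 experiments held 2 libraries of each condition: replicates 1 and 2 belong to experiment 1, replicates 3 and 4 to experiment 2. Reporter alleles and injury were common to all 8 libraries. How Tregs were depleted was not given in the sources used here, nor were the kind of injury, the time of sampling and the age of the mice. Whether each replicate is a separate animal is likewise unstated, so p-values measure the spread between these libraries, part of which may be technical.

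Wound closure in skin needs proteolysis as well as movement. Plau (urokinase) cleaves plasminogen to plasmin and is held at the cell surface by Plaur, while serpins block it. Plasmin and the metalloproteinases open the fibrin and collagen matrix, tissue inhibitors of metalloproteinases (Timps) restrain the metalloproteinases, and Tnc is laid down in the provisional matrix of healing wounds. Follicle stem cells of injured skin are known to send progeny into the epidermis.

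Libraries held 22330729 to 29975347 counts. Of the markers listed for follicle epithelium (Krt5, Krt14, Epcam, Lgr5, Krt15, Cd34, Sox9, Lhx2), 8 of 8 were tested. Their summed level was 14494 to 31493 CPM (counts relative to the library total) in Treg-depleted and 18046 to 26925 CPM in Treg-sufficient libraries. Levels of the single markers are not given here, so the sum does not show follicle identity. Some libraries stood apart. Xist, an RNA of female cells, was at 72.01 CPM in Treg-depleted replicate 2 and at 2713 CPM in Treg-sufficient replicate 2, against 0.9675 to 2.26 CPM in the others. These 2 libraries differed in Y-linked genes, which summed to 316.3 CPM in the first and 2.842 CPM in the second. The others had 314.3 to 417.4 CPM, so Treg-sufficient replicate 2 alone had few Y-linked reads. Treg-depleted replicate 2 (18605 genes detected) and Treg-sufficient replicate 3 (19593) detected fewer genes than the remaining libraries (21720 to 23062).

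The 7 genes differed widely in level. Per kilobase of exon, which allows levels of different genes to be compared, Cd44 stood highest at 112 ± 12.7 CPM per kb (SD, n = 8 libraries of both conditions). Tnc followed at 39.1 ± 19 and Plau at 18.6 ± 4.2 CPM per kb. The ranges over libraries of Cd44 (95.3 to 133) and Tnc (13.5 to 70.4) did not meet, whereas those of Tnc and Plau (13.8 to 24.5) overlapped. Plaur, at 0.824 ± 0.352 CPM per kb, lay below Plau in every library. Mmp13 (0.235 ± 0.373), Mmp9 (0.133 ± 0.172) and Mmp10 (0.0694 ± 0.0887) came last, with ranges that overlapped one another and that all began at 0. Only 0.618% of tested genes had a higher CPM than Cd44, against 76.7% for Plaur and 96% for Mmp9.

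**Figure D1:**
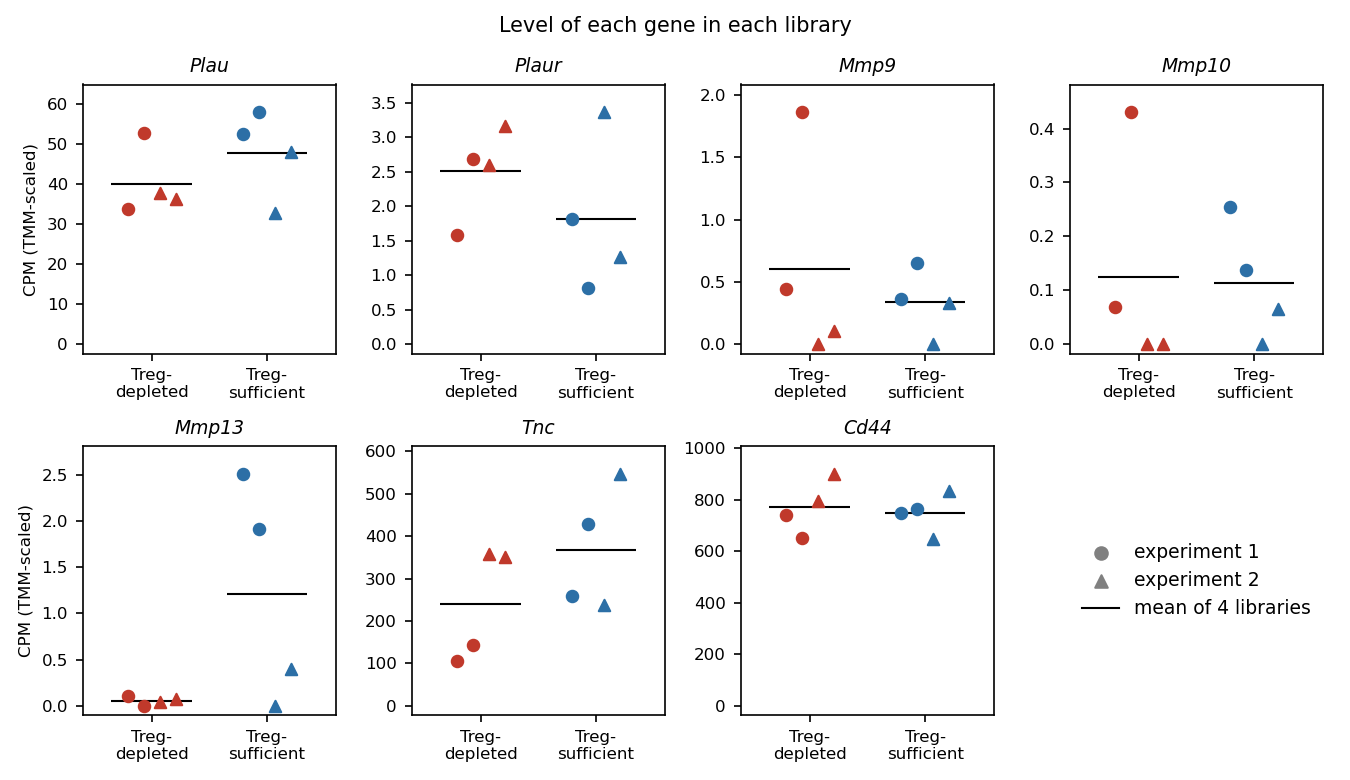
CPM on TMM-scaled library sizes of the 7 genes in each library (linear axes from 0, one scale per gene). Red points are Treg-depleted and blue points Treg-sufficient libraries, circles experiment 1 and triangles experiment 2, and lines are means of 4 libraries. In experiment 1 both Treg-depleted libraries lie below both Treg-sufficient libraries for Mmp13, Tnc and Cd44.

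Between conditions 0 of the 5 tested genes passed edgeR's quasi-likelihood test at an adjusted p of 0.05, where 0% of all 16495 genes were called. The experiment number was a term of this model. Of the 5, 3 had a positive and 2 a negative log2 fold change, with a median of 0.04 against 0.00 over all genes tested. At an unadjusted p under 0.05 stood 1 of the 5, Tnc, against 7.12% of all genes. No tested member's 4 Treg-depleted libraries all lay below or all above its 4 Treg-sufficient ones, as 1.05% and 1.27% of tested genes did. The groups of the untested Mmp10 and Mmp13 overlapped too. Within experiment 1 the count was again 0 of 5, where 0.606% of genes were called, and within experiment 2 it was 0 of 5 against 0%. The difference between the effects in the 2 experiments (interaction, experiment 2 minus experiment 1) was called for 0 of 5, against 0% of all genes. The unadjusted p was under 0.05 for 1 of 5 in experiment 1 (Tnc, against 11.1% of genes), 0 of 5 in experiment 2 (1.75%) and 1 of 5 for the interaction (Tnc, 5.6%).

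In experiment 1 both Treg-depleted libraries lay below both Treg-sufficient ones for Tnc and Cd44 among the 5 tested members, against 19% of tested genes. They lay above for 0 of the 5, against 18.6%. In experiment 2 the libraries were apart for 0 of the 5 tested members in either direction. The shares of tested genes were 15.9% with Treg-depleted below and 16.7% with Treg-depleted above. Of the untested members, Mmp13 lay below in experiment 1 and overlapped in experiment 2, and Mmp10 overlapped in both.

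Plau encodes urokinase, the protease that starts the plasmin cascade in wounded epidermis (ENSMUSG00000021822, GRCm38 chromosome 14, 20836660 to 20843385, plus strand). Treg-depleted libraries held 33.9, 52.8, 37.7 and 36.3 CPM in replicates 1 to 4, and Treg-sufficient libraries 52.6, 58, 32.7 and 48 CPM. The groups overlapped overall and within each experiment. The log2 fold change was -0.24 (SE 0.17, edgeR adjusted p = 0.761), with -0.35 (SE 0.25) in experiment 1 and -0.12 (SE 0.25) in experiment 2.

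Plaur, the glycolipid-anchored receptor that concentrates urokinase at the leading edge (ENSMUSG00000046223, chromosome 7, 24462484 to 24475968, plus strand), was counted 24 to 89 times per library. It stood at 1.58, 2.68, 2.6 and 3.16 CPM in Treg-depleted replicates 1 to 4 and at 1.82, 0.82, 3.36 and 1.26 CPM in Treg-sufficient replicates. The highest and the lowest value both came from Treg-sufficient libraries, so the groups overlapped. The log2 fold change was 0.50 (SE 0.41, edgeR adjusted p = 0.78). Within experiment 1 it was 0.69 (SE 0.62). Without both libraries with the most Xist reads, which leaves 1 library of each condition in experiment 1, it was -0.24 there. Enzyme and receptor did not run together over the libraries: Pearson's r of log2 CPM between Plau and Plaur was -0.60 over 8 libraries, given as a description.

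The other genes of the plasminogen system gave no call between conditions (0 of 9 tested genes of 12 listed, median log2 fold change -0.01) and none within experiment 1 (0 of 9, median -0.01). The plasminogen gene Plg itself, with 24 counts over all libraries, was not tested. Neither were Serpinf2, the gene of the plasmin inhibitor (32 counts), and Vtn (1 count). Anxa2 and S100a10, which form a plasminogen-binding complex on the cell surface, were the most abundant of them. Anxa2 stood at 1275, 2150, 929 and 736 CPM in Treg-depleted replicates 1 to 4, and at 1146, 1146, 841 and 974 CPM in Treg-sufficient replicates (0.23, SE 0.21). S100a10 stood at 248, 520, 190 and 176 against 272, 252, 236 and 195 CPM (0.16, SE 0.24). Treg-depleted replicate 2 was the highest library for both, and without it the log2 fold changes were -0.03 for Anxa2 and -0.19 for S100a10. Both were positive in experiment 1 (0.58 and 0.55) and negative in experiment 2 (-0.12 and -0.24).

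Within the same list Serpine2 and Mrc2 had the smallest p in experiment 1, without passing. Serpine2 encodes protease nexin-1, an inhibitor of urokinase and thrombin. It stood at 6.05 and 3.73 CPM in the Treg-depleted libraries, against 12.8 and 9.87 CPM in the Treg-sufficient ones of experiment 1 (-1.21, SE 0.35, edgeR adjusted p = 0.208). Mrc2 encodes a collagen receptor that associates with Plaur. It stood at 2.1 and 6.59 CPM in Treg-depleted libraries of experiment 1, while both Treg-sufficient libraries had 13.3 CPM (-1.63, SE 0.47, edgeR adjusted p = 0.21). Without Treg-depleted replicate 2, which leaves 1 Treg-depleted library in experiment 1, the log2 fold change of Mrc2 there was -2.69. The libraries of the 2 conditions were apart in experiment 1 and overlapped in experiment 2 for both genes. Lrp1, a scavenger receptor that clears protease complexes, averaged 153 ± 33.4 CPM in the Treg-depleted libraries, against 155 ± 28.9 CPM in the Treg-sufficient ones.

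**Figure D2:**
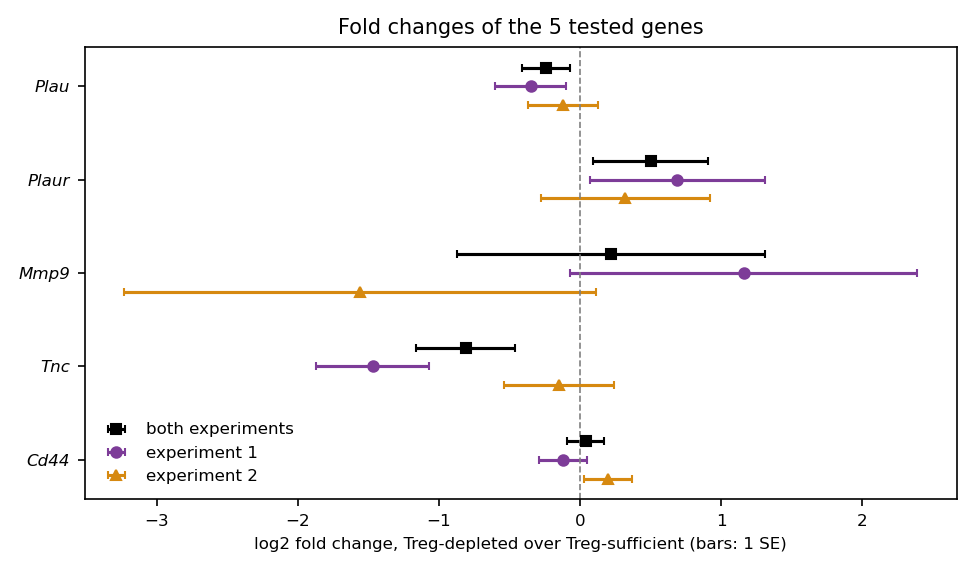
Log2 fold change (Treg-depleted over Treg-sufficient) of the 5 tested genes in both experiments together (squares, n = 4 against 4 libraries), in experiment 1 (circles, 2 against 2) and in experiment 2 (triangles, 2 against 2). Bars are 1 standard error; Tnc in experiment 1, at -1.47, lies farthest from 0 relative to its bar, and the bars of Mmp9 are the widest.

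The metalloproteinase members were the lowest of the 7. Mmp13 encodes a collagenase that wound-edge keratinocytes and fibroblasts make (ENSMUSG00000050578, chromosome 9, 7272514 to 7283331, plus strand). Its counts were 3, 0, 1 and 2 in Treg-depleted replicates 1 to 4 and 69, 56, 0 and 12 in Treg-sufficient replicates 1 to 4. The counts in Treg-sufficient libraries thus came mostly from experiment 1. There the summed rate in Treg-depleted libraries (3 counts) was 0.0259 times that in Treg-sufficient libraries (125 counts), with an exact 95% interval of 0.00527 to 0.0775. In experiment 2 the ratio was 0.27, from 3 against 12 counts (0.0488 to 0.999). These intervals cover counting error only, not the spread between libraries, and all 12 Treg-sufficient counts of experiment 2 came from Treg-sufficient replicate 4.

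Mmp13 did not pass the filter on low counts, which asked for enough reads in 4 libraries. With a filter that asked for 2 libraries, added after the counts were seen, its log2 fold change in experiment 1 was -5.19 (SE 1.47, edgeR adjusted p = 0.2 over 17748 genes). Between conditions it was -3.79 (SE 1.18, adjusted p = 0.693) under that filter. Mmp13 passed that filter only through Treg-sufficient libraries. The direction of both values was thus set by the filter and is not evidence of a difference. With no filter the adjusted p in experiment 1 was 0.000289 over 27611 genes. A fitted value of this size depends on how counts near 0 are handled.

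Mmp9 encodes gelatinase B, which keratinocytes, neutrophils and macrophages can all make (ENSMUSG00000017737, chromosome 2, 164940780 to 164955850, plus strand). It had 13, 39, 0 and 3 counts in Treg-depleted replicates 1 to 4, against 10, 19, 0 and 10 in Treg-sufficient replicates. The groups overlapped, and Treg-depleted replicate 2 was the highest of all 8 libraries at 1.86 CPM. The log2 fold change was 0.22 (SE 1.09, edgeR adjusted p = 0.974). It turned to -0.78 without Treg-depleted replicate 2, to -0.32 without Treg-sufficient replicate 1, to -0.01 without Treg-sufficient replicate 2, to -0.05 with DESeq2 and to -0.20 as the mean of the effects in each experiment. The neutrophil markers Ly6g, Retnlg, Ngp and Ltf had no count in any library. The 9 markers of that list summed to 1.24 to 4.91 CPM in the Treg-depleted libraries, against 2.47 to 3.89 CPM in the Treg-sufficient ones. Treg-depleted replicate 2 had the lowest neutrophil sum (1.24 CPM) and the lowest macrophage and Langerhans cell sum (2.15 CPM, against 3.62 to 5.54 CPM in the other libraries). These sums are low: 2 of 9 neutrophil and 1 of 10 macrophage and Langerhans cell markers had enough counts to test. The part of such cells in the Mmp9 values was not tested.

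Mmp10, stromelysin 2, which is made by keratinocytes at the migrating front (ENSMUSG00000047562, chromosome 9, 7502352 to 7510240, plus strand), had 2, 9, 0 and 0 counts in Treg-depleted and 7, 4, 0 and 2 counts in Treg-sufficient replicates 1 to 4. In experiment 1 the sum was 11 counts in Treg-depleted libraries and 11 in Treg-sufficient libraries, a ratio of rates of 1.08 with an exact 95% interval of 0.425 to 2.75. That interval too covers counting error only. In experiment 2 the 0 counts of Treg-depleted libraries stood against 2 counts in Treg-sufficient libraries, too few to compare.

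Mmp10 and Mmp13 lie in a cluster of 10 metalloproteinase genes on chromosome 9 (GRCm38, 7272514 to 7699585). Of these 10, Mmp7, Mmp20 and Mmp27 had no count, and Mmp3 and Mmp12 alone were tested. Mmp3, stromelysin 1, had 3, 28, 0 and 5 counts in Treg-depleted replicates 1 to 4, against 138, 65, 14 and 14 in Treg-sufficient replicates. Every Treg-depleted library lay below both Treg-sufficient libraries of its own experiment. Of tested genes, 19% lay so in experiment 1 and 15.9% in experiment 2, and the share for both was not counted. Mmp3 was named for its small p between conditions. The log2 fold change was -2.37 (SE 0.83, unadjusted p = 0.0188, edgeR adjusted p = 0.686), and -3.63 without Treg-depleted replicate 2. Mmp1a and Mmp1b (the second overlaps Mmp12 on the other strand), related genes some of whose reads may be split or lost, had 0 counts in Treg-depleted against 5 and 7 counts in Treg-sufficient libraries, all from experiment 1. Mmp12, the macrophage elastase, had 157 against 139 counts.

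The bases before the start of Mmp13, Mmp10 and Plaur are shown because all 3 hold a match to the letters TGANTCA, the motif of AP-1 (Fos and Jun dimers), and because AP-1 subunits were measured in the same libraries. Each is 150 bases on the plus strand of GRCm38.p6 ending at the base before the RefSeq start, with matches to TGANTCA and to AACCACA, the motif of RUNX factors, in capitals (chr9:7272364-7272513 for Mmp13, chr9:7502192-7502341 for Mmp10 and chr7:24462333-24462482 for Plaur).
Mmp13: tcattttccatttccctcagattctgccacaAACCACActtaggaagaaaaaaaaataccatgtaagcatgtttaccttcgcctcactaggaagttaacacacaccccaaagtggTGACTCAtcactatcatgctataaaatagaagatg
Mmp10: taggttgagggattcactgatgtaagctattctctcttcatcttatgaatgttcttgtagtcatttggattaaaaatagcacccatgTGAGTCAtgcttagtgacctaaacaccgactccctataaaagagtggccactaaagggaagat
Plaur: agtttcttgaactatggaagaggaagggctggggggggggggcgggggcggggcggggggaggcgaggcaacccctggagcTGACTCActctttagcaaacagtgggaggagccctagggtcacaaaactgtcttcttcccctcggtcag
Counted back from the RefSeq start, the AP-1 match began at -35 in Mmp13, -63 in Mmp10 and -69 in Plaur, and the RUNX match of Mmp13 at -119. Both motifs were searched on both strands in the 250 bases before the start, and their matches did not overlap. TGANTCA was found for 3 of the 5 members with an entry and in 6.75% of 32851 RefSeq promoters. AACCACA was found for 1 of 5 and in 4.4% of promoters. Tnc and Cd44 held neither, and Plau and Mmp9 had no entry. A match is a description of letters and does not show binding.

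Of 7 AP-1 subunit genes 7 had positive log2 fold changes in experiment 1 (median 1.73, against 0.01 over all genes) and 2 passed, where 0.606% of genes were called. Jun and Jund rose. Jun stood at 604 and 500 CPM in the Treg-depleted libraries, against 213 and 120 CPM in the Treg-sufficient ones of experiment 1 (1.73, SE 0.26, edgeR adjusted p = 0.0416). Jund stood at 101 and 88.4 against 41.5 and 33 CPM (1.34, SE 0.16, edgeR adjusted p = 0.0237). The call of Jun ended with any of 6 of the 8 libraries left out (adjusted p = 0.0778 to 0.0917) and held without Treg-depleted replicate 2 or Treg-sufficient replicate 1. That of Jund ended with any of 7 (0.0526 to 0.102) and held without Treg-depleted replicate 2. Both calls also ended with the libraries of experiment 1 alone (adjusted p = 0.269 for Jun and 0.21 for Jund). Leaving out a library of experiment 1 leaves 1 library of its condition there. The most abundant subunit, Fos, averaged 1912 ± 528 CPM in the Treg-depleted against 395 ± 381 CPM in the Treg-sufficient libraries of experiment 1 without passing (2.28, SE 0.66, edgeR adjusted p = 0.213), and Fosb averaged 722 ± 239 against 109 ± 114 CPM (2.72, SE 0.77, edgeR adjusted p = 0.199). With single libraries left out, these values ran from 1.49 (without Treg-sufficient replicate 2) to 3.93 (without Treg-sufficient replicate 1) for Fos and from 1.89 to 4.65 for Fosb, at the same libraries. In experiment 2, 0 of 7 passed (median 0.28).

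**Figure D3:**
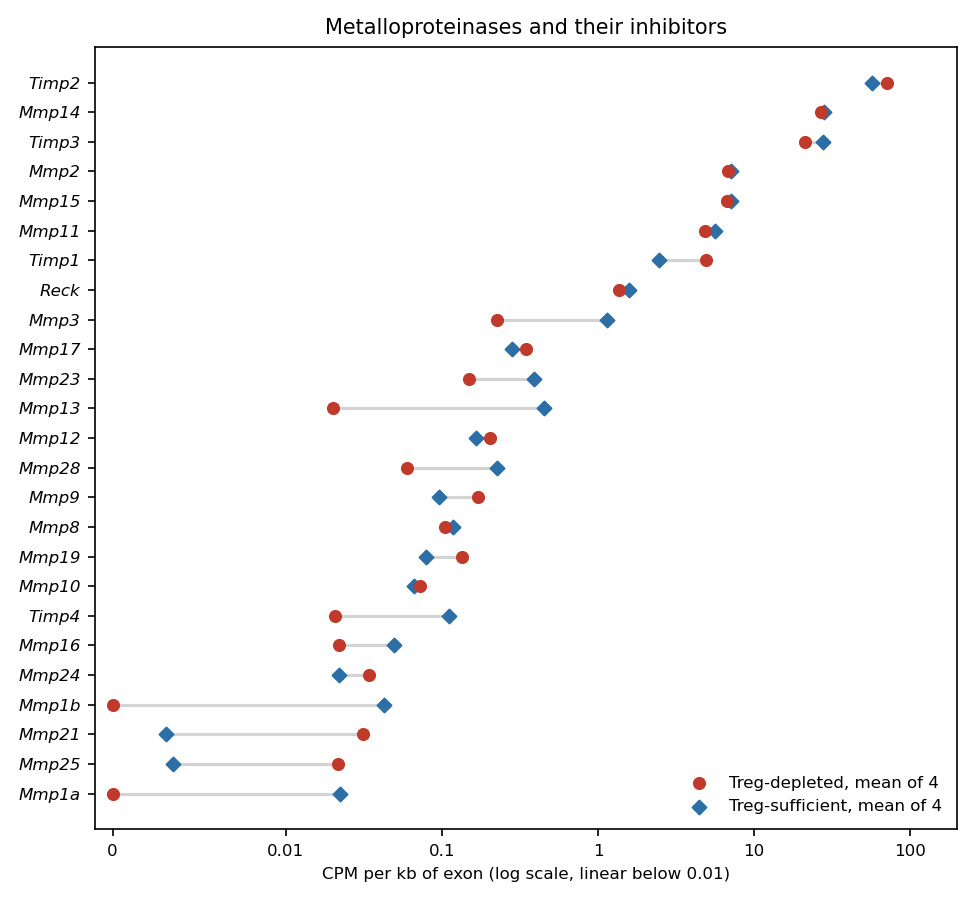
Mean CPM per kilobase of exon (log axis, linear below 0.01) of the metalloproteinases and their inhibitors with at least 1 count, highest at the top. Red circles are Treg-depleted and blue diamonds Treg-sufficient means (n = 4 each). Mmp14 shows close means, and Mmp13 shows a wide gap, 6 counts in Treg-depleted against 137 in Treg-sufficient libraries.

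Over the whole metalloproteinase list of 23 genes, 10 were tested and 0 passed between conditions (3 positive, 7 negative, median -0.10) or within experiment 1 (median -0.28). The abundant enzyme of this family was Mmp14, the membrane-bound collagenase that activates pro-Mmp2 and sheds Cd44. It averaged 160 ± 21.4 CPM in the Treg-depleted libraries, against 168 ± 18.8 CPM in the Treg-sufficient ones (-0.08, SE 0.11, edgeR adjusted p = 0.874). Mmp2, the gelatinase it activates, averaged 23 ± 4.93 against 24.1 ± 7.39 CPM. Mmp23 (-1.53, SE 0.70, between conditions) and Mmp28, an epidermal enzyme also called epilysin (-2.63, SE 1.16, in experiment 1), had few counts, at 0.908 CPM or less in the mean of either condition over both experiments. Mmp15, a second membrane-type enzyme, had the smallest p of the list in experiment 1, with 28.6 ± 2.42 against 43.2 ± 2.78 CPM (n = 2 each; -0.60, SE 0.19, edgeR adjusted p = 0.265). In experiment 2 it stood the other way, with 43.6 ± 8.86 against 33.8 ± 4.67 CPM (0.37, SE 0.19), and the interaction was 0.96 (SE 0.27, unadjusted p = 0.00738, edgeR adjusted p = 0.53).

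Among the inhibitors, Timp3 fell in experiment 1. Timp3, which binds to matrix and blocks metalloproteinases and Adam17, stood at 34.7 and 55.1 CPM in the Treg-depleted libraries, against 148 and 132 CPM in the Treg-sufficient ones (-1.64, SE 0.23, edgeR adjusted p = 0.0364). In experiment 2 it stood at 271 and 335 CPM in the Treg-depleted libraries, against 288 and 335 CPM in the Treg-sufficient ones (-0.04, SE 0.23). The interaction was 1.60 (SE 0.32, unadjusted p = 0.00118, edgeR adjusted p = 0.314), so the difference between experiments did not pass. The call in experiment 1 ended with any of 7 of the 8 libraries left out (adjusted p = 0.0526 to 0.168), held without Treg-depleted replicate 2, and ended with the libraries of experiment 1 alone (adjusted p = 0.21). Leaving out a library of experiment 1 leaves 1 library of its condition there. Timp2, the most abundant inhibitor, averaged 279 ± 68.6 against 222 ± 55.2 CPM (0.31, SE 0.18, edgeR adjusted p = 0.71). Timp1 stood at 1.82, 13.2, 1.24 and 1.14 CPM in Treg-depleted replicates 1 to 4, and at 1.96, 1.88, 3.32 and 1.59 CPM in Treg-sufficient replicates. Its log2 fold change was 0.51 (SE 0.81), and -0.65 without Treg-depleted replicate 2, the one high library. It was 1.96 in experiment 1, where that library lies, and -1.04 in experiment 2. Reck, a membrane-anchored inhibitor, averaged 6.51 ± 3.11 against 7.54 ± 2.47 CPM.

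Tnc, tenascin-C, was the member with the smallest p (ENSMUSG00000028364, chromosome 4, 63959785 to 64047015, minus strand). The antisense gene 8030451A03Rik overlaps it and held 189 counts over all libraries. Tnc stood at 105, 143, 358 and 351 CPM in Treg-depleted replicates 1 to 4 and at 258, 429, 238 and 547 CPM in Treg-sufficient replicates. The groups overlapped over both experiments, with 239 ± 134 against 368 ± 147 CPM (n = 4 each; -0.81, SE 0.35, unadjusted p = 0.0485, edgeR adjusted p = 0.696). In experiment 1 both Treg-depleted libraries lay below both Treg-sufficient ones (-1.47, SE 0.40, unadjusted p = 0.00601, edgeR adjusted p = 0.174). In experiment 2 the Treg-depleted values lay between the Treg-sufficient ones (-0.15, SE 0.39). The interaction was 1.32 (SE 0.55, unadjusted p = 0.0432, edgeR adjusted p = 0.862).

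The log2 fold change of Tnc in experiment 1 ran from -1.79 without Treg-sufficient replicate 1 to -1.10 without Treg-sufficient replicate 2. Either omission leaves 1 Treg-sufficient library in experiment 1. Without both libraries with the most Xist reads, which leaves 1 library of each condition there, the value was -1.35. With all libraries, DESeq2 called Tnc in experiment 1 (-1.48, adjusted p = 0.00386). Between conditions the value was -0.54 without Treg-sufficient replicate 2 and without both libraries with the most Xist reads. Fibroblasts make Tnc, Mmp3, Mmp13 and Timp3 too, and in a sorted bulk sample fewer cells of a type and less RNA per cell cannot be told apart. All 9 fibroblast markers were tested and none was at 0. In experiment 1 they summed to 437 and 219 CPM in the Treg-depleted libraries, against 261 and 214 CPM in the Treg-sufficient ones, with 6 of 9 log2 fold changes negative (median -0.71) and 0 called. Col6a1 made up most of this sum, with 406 and 187 CPM in the Treg-depleted libraries, against 161 and 171 CPM in the Treg-sufficient ones. The sum of the other 8 markers was 31.2 and 32.2 against 101 and 43.2 CPM, so without Col6a1 the direction of the sum changed. These 8 markers did not move together. Dcn stood at 2.34 and 3.2 against 30.3 and 7.1 CPM (-2.76, SE 0.69, unadjusted p = 0.00417, edgeR adjusted p = 0.148), and Col1a2 at 9.9 and 6.35 against 34.5 and 13.9 CPM (-1.57, SE 0.49, edgeR adjusted p = 0.246). Lum had no count in the Treg-depleted libraries of experiment 1, against 1.31 and 0.171 CPM in the Treg-sufficient ones. Col1a1 was also lower in both Treg-depleted libraries, at 5.6 and 9.51 against 10.9 and 13.8 CPM. Thy1 was higher in both, at 11.6 and 10.2 against 10.1 and 6.46 CPM, and Col3a1, Pdgfra and Fbn1 overlapped. In experiment 2 the sums of the 8 markers other than Col6a1 overlapped, at 82.2 and 62.8 against 80.3 and 118 CPM. The part of such cells in these results was not tested.

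Receptors of Tnc were measured beside it. Of 12 tested genes among 13 tenascins and receptors, 0 passed in either experiment. Itgb6 encodes the epithelial chain of a tenascin and fibronectin receptor that keratinocytes switch on in wounds. It stood at 13.6 and 23.4 CPM in the Treg-depleted libraries, against 54.2 and 45.2 CPM in the Treg-sufficient ones of experiment 1 (-1.43, SE 0.31, edgeR adjusted p = 0.0959). In experiment 2 it stood at 115 and 110 against 72.9 and 121 CPM (0.22, SE 0.29). Without Treg-depleted replicate 2, which leaves 1 Treg-depleted library in experiment 1, the log2 fold change of Itgb6 there was -1.90. The abundant integrin chain Itgb1 averaged 541 ± 63.6 against 494 ± 31.1 CPM (0.13, SE 0.11). Itga2, a collagen receptor chain, averaged 51.8 ± 15.1 against 35.4 ± 8.74 CPM (0.52, SE 0.16, unadjusted p = 0.00985, edgeR adjusted p = 0.686). The heparan sulphate proteoglycan gene Sdc4 averaged 424 ± 106 against 307 ± 40.8 CPM (0.44, SE 0.14, edgeR adjusted p = 0.686).

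**Figure D4:**
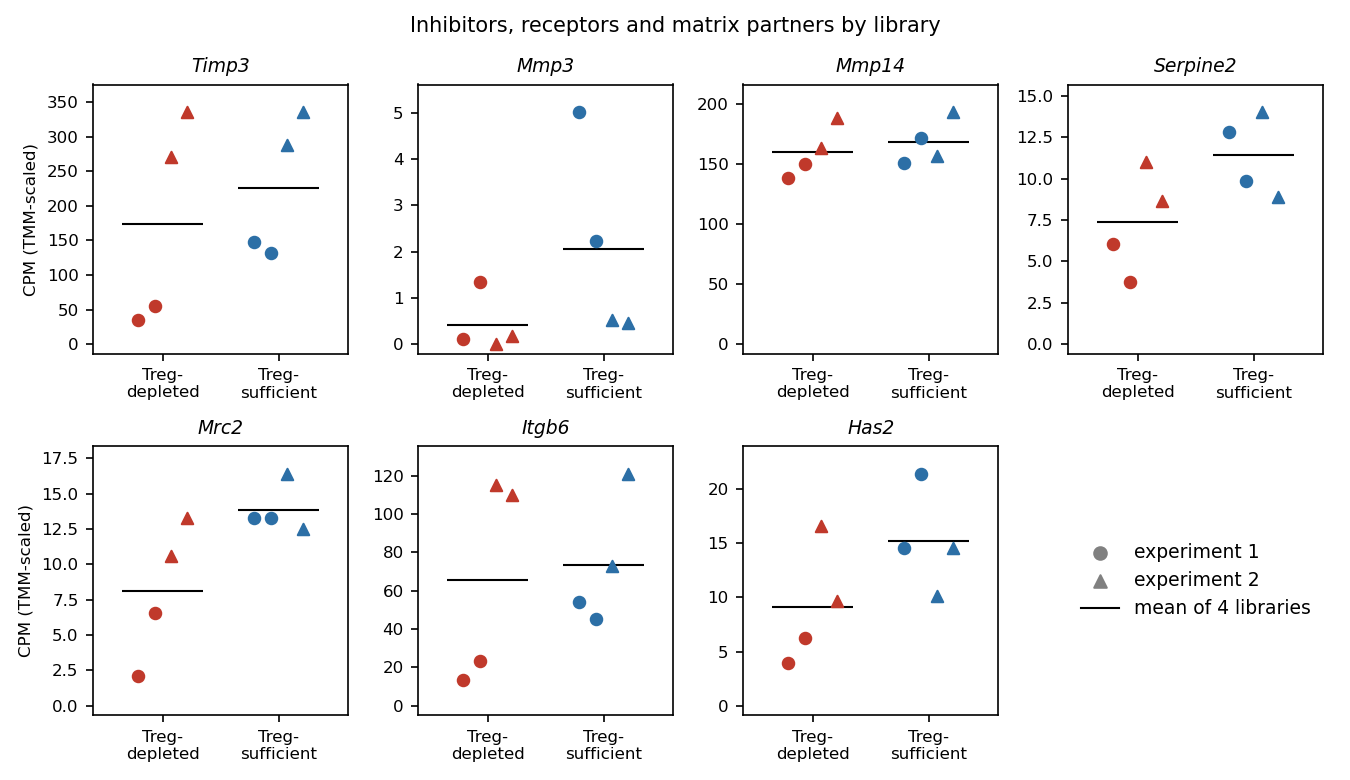
CPM on TMM-scaled library sizes of 7 partner genes in each library, chosen after their values were seen (linear axes from 0, symbols as in the plot of the 7 members). Timp3, Itgb6 and Has2 are low in both Treg-depleted libraries of experiment 1, and Mmp14 shows close means, 160 CPM in the Treg-depleted libraries, against 168 CPM in the Treg-sufficient ones.

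Cd44, the hyaluronan receptor of migrating and basal keratinocytes (ENSMUSG00000005087, chromosome 2, 102811141 to 102901665, minus strand), was the steadiest member. It stood at 740, 653, 794 and 901 CPM in Treg-depleted replicates 1 to 4 and at 747, 763, 646 and 835 CPM in Treg-sufficient replicates. The groups overlapped (0.04, SE 0.13, edgeR adjusted p = 0.957), although in experiment 1 both Treg-depleted libraries lay just below both Treg-sufficient ones (-0.12, SE 0.17). In experiment 2 the value was 0.20 (SE 0.17). Gene counts do not tell the splice forms of Cd44 apart. T cells carry Cd44 too, and the 8 T cell markers, none of them at 0 in all libraries, summed to 0.478 to 1.56 CPM in the Treg-depleted libraries, against 0.615 to 2.48 CPM in the Treg-sufficient ones.

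In the hyaluronan and Cd44 list 15 of 16 genes were tested, and 0 passed between conditions (median 0.04) or within experiment 1 (median 0.01). Has2, the main hyaluronan synthase of wounded skin, stood at 3.99 and 6.21 CPM in the Treg-depleted libraries, against 14.6 and 21.4 CPM in the Treg-sufficient ones of experiment 1 (-1.82, SE 0.38, edgeR adjusted p = 0.0881). In experiment 2 it stood at 16.6 and 9.69 against 10.1 and 14.6 CPM (0.09, SE 0.36). Cemip2, which degrades hyaluronan at the cell surface, averaged 78.6 ± 22.4 against 57.9 ± 14.5 CPM (0.42, SE 0.15, edgeR adjusted p = 0.686). Msn, which couples Cd44 to actin, averaged 549 ± 99 against 535 ± 80.1 CPM over both experiments, and its relative Rdx averaged 342 ± 32.2 against 359 ± 11 CPM. Hmmr, another hyaluronan-binding protein and a gene of dividing cells, stood at 21.2 ± 12.2 CPM in the Treg-depleted libraries, against 53.2 ± 9.79 CPM in the Treg-sufficient ones of experiment 1 (n = 2 each; -1.34, SE 0.36, edgeR adjusted p = 0.176). Without Treg-depleted replicate 2, which leaves 1 Treg-depleted library there, its log2 fold change was -2.12. Spp1, the gene of the Cd44 ligand osteopontin, was too low to test at 39 counts in all.

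Other genes of the wound edge gave 0 calls of 12 between conditions (6 positive, 6 negative, median -0.14) and 0 of 12 within experiment 1 (median 0.09). Krt17, a keratin of follicle and wound keratinocytes, averaged 1705 ± 714 CPM in the Treg-depleted libraries, against 2115 ± 364 CPM in the Treg-sufficient ones (-0.37, SE 0.23, edgeR adjusted p = 0.725). Krt6a, a wound-induced keratin, averaged 419 ± 592 against 457 ± 242 CPM, with an SD above its mean in Treg-depleted libraries. Hbegf, a growth factor of the wound edge, had a log2 fold change of 0.54 (SE 0.30) between conditions and 0.17 without Treg-depleted replicate 2, its highest library at 23.1 CPM. Without the same library the value of Krt6a was -1.63, against -0.66 (SE 0.58) with it. Inhba, which encodes an activin chain, had -1.27 (SE 0.48, edgeR adjusted p = 0.372) in experiment 1. Reads of keratin genes with near-identical copies were not counted where they aligned to several places.

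The experiments themselves were also compared, experiment 2 over experiment 1 with condition in the model. 0 of the 5 tested members passed, where 1.62% of genes were called. Tnc and Mmp9 had an unadjusted p under 0.05, that is 2 of 5 against 22% of genes. Mmp9 passed the filter on low counts only through the libraries of experiment 1, so its p between experiments is not evidence. Tnc averaged 374 ± 128 CPM in experiment 2 and 234 ± 146 CPM in experiment 1 (n = 4 each; 0.85, SE 0.35, edgeR adjusted p = 0.202). Mmp9 had 13 counts in experiment 2 and 81 in experiment 1 (-2.74, SE 1.07, edgeR adjusted p = 0.18), and Mmp10 had 2 counts in experiment 2 and 22 in experiment 1. All libraries of experiment 2 lay below those of experiment 1 for 1 of 5 tested members, Mmp9, against 5.86% of tested genes. The reverse held for 0 of 5 members and 7.5% of genes. The filter had set the separation of Mmp9 in advance, so it does not show a difference between experiments. For Mmp10 the highest library of experiment 2 and the lowest of experiment 1 had 2 counts each. Mmp13 had 15 counts in experiment 2 and 128 in experiment 1. Of the partner genes, Timp3 was higher in experiment 2, at 307 ± 32.6 CPM against 92.3 ± 55.7 CPM in experiment 1 (1.95, SE 0.33, edgeR adjusted p = 0.0446). Cemip, a hyaluronan-degrading protein, was lower, at 2.54 ± 1.3 against 11.3 ± 3.58 CPM (-2.15, SE 0.38, edgeR adjusted p = 0.0446). Each of these calls ended with any of 7 of the 8 libraries left out (adjusted p = 0.0548 to 0.141 for Timp3, 0.0615 to 0.141 for Cemip) and held without Treg-sufficient replicate 1. Melanocyte markers also differed between experiments, with 4 of 4 positive, 2 called (Dct and Pmel) and none at 0. They summed to 89.1 to 293 CPM in experiment 2 and to 17.3 to 44.7 CPM in experiment 1, and their part in these values was not tested.

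The members did not form one pattern over the 8 libraries. Among the pairs of tested members, Pearson's r of log2 CPM was highest for Plau with Mmp9 (0.71) and for Tnc with Cd44 (0.60). Mmp9 averaged 0.47 CPM, under the 5 CPM asked of the genes compared with the members, so its r values rest on few counts. The genes most alike to Tnc among tested genes with a mean of at least 5 CPM were Fbxo42 (r = 0.96) and Slc15a1 (0.95). Those most alike to Cd44 were Zfp326 (0.98) and Ankrd52 (0.95), and those most alike to Plau were Pkp1, a desmosome gene, and Csta1 (0.95 each). Plaur was most like Selenok (0.98) and Zbtb48 (0.96), and Mmp9 most like Ostm1 (0.99) and Hs6st1 (0.96). These are descriptions over 8 libraries, picked as the highest of many, and the libraries share their experiment and depth.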

How the data were processed

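The authors deposited raw read counts per Ensembl gene for 8 libraries, with no normalization, and 5 tallies of unassigned reads, which entered neither library sizes nor tests. Per the labels' protocols, the sorted cells' RNA came from RNeasy columns and went into the TruSeq Stranded mRNA kit. Per the submitters' processing notes, TopHat2 (version 2), SAMtools, HTSeq and DESeq2 were used with build GRCm38.p4; what each tool did, how strand was set and which annotation release was used was not given in the sources used here. Reads aligned to several places made up 26.2 to 30.6% of all reads listed, in no annotated gene 6.63 to 10.8%, and overlapping several genes 2.72 to 3.01%; none was counted for a gene. Per-sample columns left unused numbered 0.

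Symbols, positions and exon lengths came from GENCODE M21 (GRCm38), which named 45229 identifiers. Genes passing edgeR's filterByExpr (minimum count 10, by condition) numbered 16495. Tests used R 4.3.3 and edgeR 4.0.16 with TMM factors, quasi-likelihood F-tests and Benjamini-Hochberg adjustment over all tested genes, threshold 0.05. The first model had condition and experiment (5 residual degrees of freedom). A model of 4 groups (4 residual degrees of freedom) gave effects within experiments and the interaction. SE is the fold change divided by the root of F. Steps were tested on simulated counts. Levels are CPM on TMM-scaled libraries, given as mean ± SD. Ratios of low counts have exact (Clopper-Pearson) 95% intervals. Alternatives were DESeq2 1.42.0, limma-voom (limma 3.58.1), other scaling factors, filters and models, and each library left out.

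The 7 members and the lists of related genes were chosen with earlier results of these data known. Named from each list were the 3 genes with the highest CPM, the 2 with the smallest p between conditions and within experiment 1, and all called genes, and for each tested member the 2 genes with the most similar levels; others named were chosen after their values were seen. Some genes that this rule names are not reported here. Same-lettered libraries of the 2 conditions were not treated as pairs.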

Additional observations from a re-analysis of the deposited data

Results flagged for a closer look

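Mmp10 stood at 0.43 CPM in Treg-depleted replicate 2, far above the other Treg-depleted libraries, which had 0 to 0.0687 CPM. The value rests on 9 counts. Both conditions of all 7 genes were looked at, 14 groups in all, and chance picks out about 1 group in 20.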

How the results depend on the processing

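Counts of members called were 0 in all 5 comparisons, with any single library left out as well. With no filter on low counts edgeR called 2 members between conditions and 2 within experiment 1 (Tnc and Mmp13 in each), 1 for the interaction (Tnc) and 3 between experiments (Tnc, Mmp9 and Mmp13). DESeq2 called 1 within experiment 1 (Tnc). Those settings also called more genes of all kinds. Between conditions edgeR called 0 genes, with 1175 at an unadjusted p under 0.05, against 84 by DESeq2, 820 without the filter and 0 by limma-voom. The counts were 100, 721 and 1152 within experiment 1 by edgeR, by DESeq2 and without the filter, 0, 1 and 132 within experiment 2, 0, 182 and 534 for the interaction, and 268, 2167 and 2443 between experiments. The other alternatives called 0 to 487 genes within experiment 1, 0 to 89 for the interaction and 0 to 651 between experiments. The causes were not tested.

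Directions turned for low or near-zero values. Plaur was -0.24 within experiment 1 and 0.57 for the interaction without both libraries with the most Xist reads. That setting leaves 1 library of each condition in experiment 1. Any single library left out leaves 1 library of its condition in its own experiment. Mmp9 between conditions was -0.05 with DESeq2 and -0.20 in the 4-group model. Leaving out single libraries gave ranges that crossed 0 for Plau within experiment 2 (-0.38 to 0.18) and for the interaction (-0.04 to 0.61), and for Plaur within experiment 2 (-0.22 to 1.19) and for the interaction (-1.04 to 0.51). They crossed 0 for Mmp9 between conditions (-0.78 to 1.35), within experiment 1 (-0.21 to 1.85), within experiment 2 (-5.24 to 3.67) and for the interaction (-6.40 to 2.51). The same held for Tnc within experiment 2 (-0.63 to 0.57) and Cd44 between conditions (-0.06 to 0.09). Of the partner genes whose values are given, ranges between conditions crossed 0 for Anxa2 (-0.03 to 0.36), S100a10 (-0.19 to 0.28), Timp1 (-0.65 to 1.00), Lrp1 (-0.17 to 0.09), Mmp2 (-0.20 to 0.11), Msn (-0.11 to 0.13) and Reck (-0.72 to 0.06), and within experiment 1 for S100a10 (-0.12 to 0.96) and Timp1 (-0.11 to 2.76). Without both libraries with the most Xist reads the signs also turned between conditions, to -0.05 for Anxa2, -0.22 for S100a10, -0.74 for Timp1, 0.15 for Lrp1, 0.23 for Mmp2 and -0.09 for Msn. Within experiment 1, where that setting leaves 1 library of each condition, they turned to -0.18 for S100a10 and -0.15 for Timp1.

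With the replicate block, the letter shared by library titles of both conditions, 0 members were called and Tnc had -0.75 (SE 0.35). Same-lettered libraries deviated together with correlations of 0.179, 0.13, 0.094 and 0.314 for A to D, and of -0.095 in experiment 1 and -0.118 in experiment 2 once the experiment was taken out, so whether the letters mark pairs is not known, and they were not used as pairs. Depth limits Mmp9, Mmp10 and Mmp13, at 24 to 143 counts over 8 libraries.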
